A study of Mus musculus with 45 samples.

Results

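The genes described here are the nuclear genes that code for the subunits of the mitochondrial respiratory chain and of ATP synthase. The set was chosen with earlier results of these data known. It takes, by symbol alone, every row of the expression tables named Nduf followed by a, b, c, s or v and a digit, Sdha to Sdhd, Uqcr, Cox4 to Cox8 or Atp5, with pseudogenes left out. This gave 84 genes of the 52636 rows in each table. Of these, 37 belong to complex I (NADH dehydrogenase), 4 to complex II (succinate dehydrogenase), 8 to complex III (cytochrome bc1), 18 to complex IV (cytochrome c oxidase) and 17 to complex V (ATP synthase). The Atp5 pattern also takes in Atp5s and Atp5sl, which are not core subunits, and Ndufa4 is counted here under complex I by its name although its protein has been placed in complex IV.

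Complexes I and II pass electrons from NADH and succinate to ubiquinone, complex III passes them on to cytochrome c and complex IV to oxygen. Complexes I, III and IV pump protons, and complex V uses the gradient to make ATP. Complex II also belongs to the tricarboxylic acid cycle and is the only complex made wholly from nuclear genes; the others each contain subunits translated from mitochondrial DNA. In the intestine, crypt base stem cells that carry Lgr5, a receptor for R-spondins, divide and give rise to absorptive enterocytes, Paneth cells and other secretory cells, and R-spondins raise Wnt signalling in the crypt.

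RNA was sequenced from sorted mouse stem cells (15 libraries) and from organoids (30 libraries), and values are CPM, the read count of a gene scaled to a common library total. In the first set, eGFP-positive cells came from the Lgr5-DTReGFP line, in which a cassette sits in the Lgr5 locus and makes a null allele, so that heterozygotes (HE) carry 1 working copy of Lgr5 and knockouts (KO) carry none. At E16.5, cells of the whole small intestine were pooled by genotype from litter 85 (HE 7 embryos, KO 2 embryos) and litter 97 (HE 8, KO 6), at E18.5 the 2 HE libraries were 1 embryo each, and 2-month-old HE mice 71 and 77 each gave a duodenum and an ileum library. In the second set, ileal eGFP-positive, RFP-positive cells came from 2-month-old mice with a GFP-CreERT2 knock-in at Lgr5 and a Rosa26 tdTomato reporter, 48 h after 2 mg tamoxifen: 2 HE mice (Cre/+, mice 3-22 and 3-27) and 3 conditional knockout mice (cKO, Cre/flox, mice 1-22, 1-32 and 1-34), in which the Cre allele itself is null for Lgr5. Organoids were grown from E17.5 Lgr5-DTReGFP embryos, 3 wild-type cultures (WT10, WT5 and WT30) and 2 KO cultures (KO7 and KO2), each from 1 embryo, and were sequenced at passage 4 after culture in mouse Rspondin 1, 2 or 3 (Rspo1, Rspo2, Rspo3) at 100 or 5 ng/ml. Organoid values below are given in that order of cultures, WT10, WT5, WT30 or KO7, KO2.

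Estimated depth was 1276596 to 9988897 reads in sorted cells and 18127853 to 33105592 reads in organoids. Sorted-cell and organoid libraries were made with different kits and were never compared with each other. In the conditional knockout set, the deposited labels and the study's supplementary dataset disagree on mice 3-22 and 1-32, whose genotypes are swapped between them; the labels were used, and values under the other assignment are given with that result. Lgr5 itself was at 104 and 125 CPM in HE pools of E16.5 and 64.8 and 51.7 CPM in those of KO embryos, a count per gene that does not separate the transcript of the null allele, and at 52.8 and 87.6 CPM in the HE against 89.2, 109 and 90.7 in the cKO mice, where a deletion inside the gene leaves most of its exons countable and the value checks nothing. Organoid genotype coincided with sex, since Ddx3y was at most 0.45 CPM in every WT library and at least 55.0 CPM in every KO library, and the same held in the conditional knockout set, where the HE mice were male and the cKO mice female. Ndufa1, Ndufb11 and Cox7b lie on the X chromosome. In such bulk RNA, fewer cells of a type and less RNA per cell cannot be told apart, nor can a fall of these genes and a rise of other transcripts, because CPM are shares of a library.

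Nuclear respiratory factor 1 (NRF1) and ETS factors of the GABP family are known activators of many respiratory chain genes, so the start-site windows of the members were searched for the NRF1 core CGCATGCG, which reads the same on both strands, and for the ETS core ACTTCCGG (CCGGAAGT on the other strand). These cores do not overlap each other in sequence. Of the 84 genes, 66 had a window in the RefSeq promoter table (GRCm38.p6, 250 bases before to 50 after a start, 71 windows). The NRF1 core was present for 9 of 66 members (13.6%) and for 2.07% of all 27025 genes in the table, and the ETS core for 5 of 66 (7.58%) and 4.31%. By complex, the NRF1 core occurred in 2 of 32 genes of complex I, in 0 of 3 of complex II, in 2 of 5 of complex III, in 1 of 13 of complex IV and in 4 of 13 of complex V. A match describes letters in a window and is not evidence of binding. Written 5' to 3' with the match in capitals, 1 window is given for each complex with a match, one whose gene was lower at 100 ng/ml in the most organoid comparisons, followed by the window of Cox7a1, which had no match and is described below for its response to dose. In that count Ndufa8 was tied with Ndufa11, whose window holds the NRF1 core, and Cox6a1 with Cox8a, whose window holds the ETS core. The windows are those of Ndufa8 at chr2:36049289-36049588 (minus strand), Uqcrc1 at chr9:108936398-108936697 (plus strand) and Cox6a1 at chr5:115348909-115349208 (minus strand), which hold the NRF1 core, Atp5h at chr11:115419870-115420169 (minus strand), which holds the ETS core, and Cox7a1 at chr7:30183921-30184220 (plus strand).
Ndufa8: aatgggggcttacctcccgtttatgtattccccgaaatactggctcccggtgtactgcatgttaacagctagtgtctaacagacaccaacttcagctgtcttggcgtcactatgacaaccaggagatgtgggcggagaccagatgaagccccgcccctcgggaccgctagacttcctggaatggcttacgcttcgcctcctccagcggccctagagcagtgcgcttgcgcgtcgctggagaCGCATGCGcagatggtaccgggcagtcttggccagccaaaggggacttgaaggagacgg
Uqcrc1: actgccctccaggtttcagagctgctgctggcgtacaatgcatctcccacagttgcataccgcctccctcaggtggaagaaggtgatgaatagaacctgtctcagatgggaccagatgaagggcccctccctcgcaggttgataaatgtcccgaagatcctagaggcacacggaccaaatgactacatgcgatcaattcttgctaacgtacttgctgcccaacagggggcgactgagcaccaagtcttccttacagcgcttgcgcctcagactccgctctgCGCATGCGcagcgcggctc
Cox6a1: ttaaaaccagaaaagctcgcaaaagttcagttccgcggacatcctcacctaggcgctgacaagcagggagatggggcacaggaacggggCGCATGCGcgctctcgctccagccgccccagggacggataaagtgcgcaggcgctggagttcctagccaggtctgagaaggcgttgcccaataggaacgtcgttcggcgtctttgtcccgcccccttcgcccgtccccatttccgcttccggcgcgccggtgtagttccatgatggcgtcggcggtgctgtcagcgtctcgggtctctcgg
Atp5h: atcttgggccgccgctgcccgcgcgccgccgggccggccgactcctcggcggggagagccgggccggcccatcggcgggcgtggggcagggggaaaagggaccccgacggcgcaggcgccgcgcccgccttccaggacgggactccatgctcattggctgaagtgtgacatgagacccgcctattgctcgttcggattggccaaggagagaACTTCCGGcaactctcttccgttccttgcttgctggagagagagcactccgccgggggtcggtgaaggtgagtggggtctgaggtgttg
Cox7a1: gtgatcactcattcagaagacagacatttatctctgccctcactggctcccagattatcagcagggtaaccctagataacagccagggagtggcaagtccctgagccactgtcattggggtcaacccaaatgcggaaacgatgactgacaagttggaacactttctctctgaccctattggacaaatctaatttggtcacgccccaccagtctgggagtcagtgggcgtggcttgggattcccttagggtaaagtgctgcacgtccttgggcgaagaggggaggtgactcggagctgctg

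All 5 complexes were expressed in sorted cells and in organoids. Per kilobase of exon, so that genes can be compared, the median member was at 46.4 CPM per kb in sorted cells and 45.4 in organoids for complex I, 62.1 and 86.2 for complex II, 106 and 104 for complex III, 65.0 and 65.3 for complex IV, and 71.6 and 45.5 for complex V. The complex IV median covers all 18 members, of which 11 reached a mean of 10 CPM in sorted cells and 5 had a mean below 1 CPM. It therefore does not rank the expressed genes of complex IV against the other complexes. Among the genes with the most reads in each complex, Atp5b, the catalytic beta subunit of ATP synthase, reached 262 and 314 CPM per kb in sorted cells and organoids. Cox4i1, a core nuclear subunit of cytochrome c oxidase, reached 190.4 and 220.0 CPM per kb. The corresponding genes of complexes II and III were lower, with 65.2 and 97.7 CPM per kb for Sdha, the flavoprotein of complex II, and, for the core proteins of complex III, 89.7 in sorted cells for Uqcrc2 and 104 in organoids for Uqcrc1. Of the summed CPM of the members, complex V made up 38.3% to 42.5% in the embryonic libraries, 40.6% to 42.7% in the adult Lgr5-DTReGFP libraries and 32.2% to 40.8% in organoids. Complex IV made up 18.0% to 21.0% in the 4 E16.5 pools, 15.4% to 15.6% in the E18.5 embryos and 15.1% to 15.7% in the adult libraries, so that its share was highest in the E16.5 pools of that set.

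Complex IV has tissue-specific paralogs, and the ubiquitous forms were the ones expressed. Cox4i1 ranged from 142 to 556 CPM over the sorted libraries and from 254 to 805 CPM over the organoids, whereas its lung-type paralog Cox4i2 stayed at or below 0.65 and 0.70 CPM. Cox6a1, Cox7b and Cox8a had 83.0 to 341, 93.3 to 200.5 and 76.7 to 237 CPM in sorted cells, whereas Cox6a2 and Cox8b, the muscle-type forms, Cox7b2 and Cox8c stayed below 1 CPM in every library of both sets, and Cox7b2 and Cox8c were at 0 in all 30 organoid libraries. These last 4 genes and Cox4i2 fell below the filter in every comparison and were tested in none, Ndufa4l2 was not tested in the comparison of adult with E18.5 cells, and Ndufa4l2 and Cox7a1 were not tested between gut regions. Cox7a1, the heart and muscle form of subunit VIIa, was expressed at a low level beside Cox7a2, with 0.50 to 12.7 CPM against 67.4 to 299 CPM in sorted cells. Cox6b2, a testis-type form, had 0.55 to 6.15 CPM in sorted cells against 69.4 to 226 CPM for Cox6b1, and Cox7a2l, a factor in supercomplex assembly, 49.9 to 181 CPM. Ndufa4l2, a hypoxia-inducible paralog of Ndufa4, stayed at or below 2.80 CPM in sorted cells and 1.75 CPM in organoids.

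**Figure D1:**
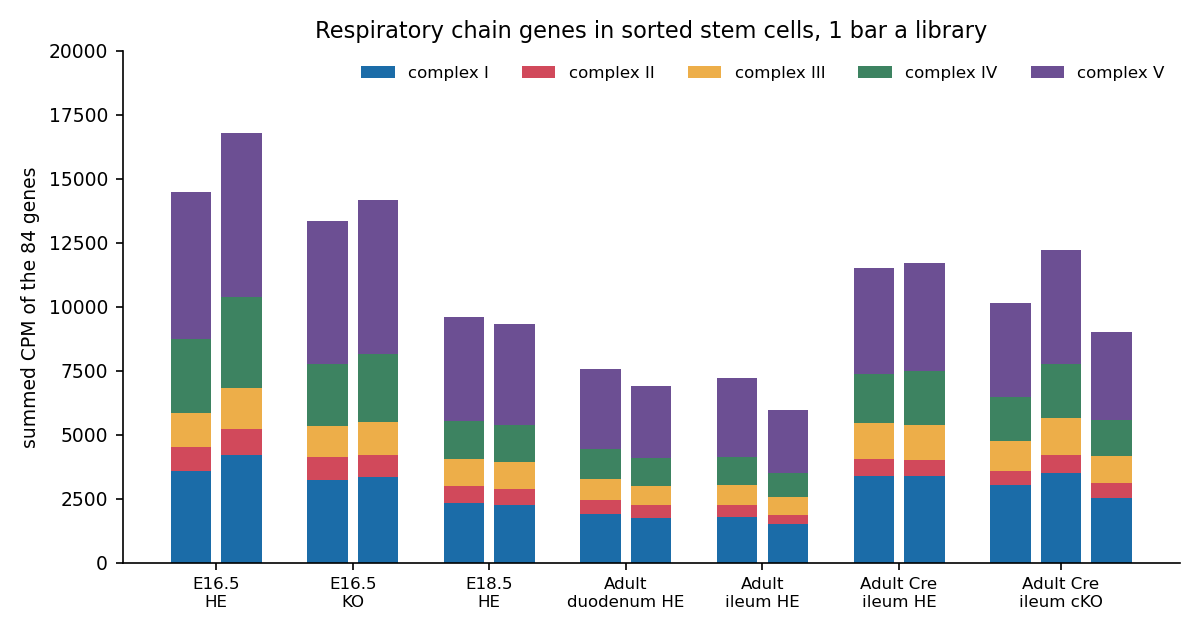
Summed CPM of the 84 genes in each sorted-cell library, 1 bar a library, stacked by complex. The E16.5 bars reach 13355 to 16788 CPM and the 4 adult Lgr5-DTReGFP bars 5974 to 7580 CPM, with the E18.5 bars between them and the conditional knockout set at 9028 to 12201 CPM.

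The first comparison asked how these genes change between embryonic stages in HE stem cells. Their summed level was 14474 and 16788 CPM in the E16.5 HE pools and 9582 and 9336 CPM in the E18.5 embryos, without overlap. Of 79 members tested, 37 fell and 12 rose from E16.5 to E18.5, at an adjusted p (Benjamini-Hochberg over all genes tested) of at most 0.1 and a change of at least 1.5-fold. Over all genes 19.4% were called lower and 30.3% higher. The median log2 fold change was -0.45 for the members and 0.23 for all tested genes. By complex, there were 19 of 37 genes lower and 5 higher in complex I, 1 of 4 lower in complex II, 3 of 8 lower and 1 higher in complex III, 9 of 13 lower and none higher in complex IV, and 5 of 17 lower and 6 higher in complex V. One of the higher genes counted under complex I is Ndufa4, which would be a higher gene of complex IV if counted by its protein.

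Among the genes that fell, Cox7c (ENSMUSG00000017778, chr13:86044816-86046904, minus strand), a small structural subunit of complex IV, was at 429.5 and 455 CPM at E16.5 and 96.0 and 98.4 CPM at E18.5, a log2 fold change of -2.17 (SE 0.10, adjusted p = 0.000127). Ndufs6 (ENSMUSG00000021606, chr13:73319838-73328542, minus strand), an accessory subunit of complex I, was at 177 and 179 CPM at E16.5 and 45.2 and 42.1 CPM at E18.5, a log2 fold change of -2.01 (SE 0.11, adjusted p = 0.000191). In both genes the stages did not overlap and the replicates of a stage lay close together. Sdhd, a membrane anchor of complex II, was at 404 and 476 CPM at E16.5 and 137 and 145 CPM at E18.5, a log2 fold change of -1.63 (SE 0.12, adjusted p = 0.000353). Cox6a1, whose window is printed above, was at 341 and 339 CPM at E16.5 and 124 and 129.9 CPM at E18.5, with a log2 fold change of -1.42 (SE 0.10). Ndufb8, another accessory subunit of complex I, also fell, with a log2 fold change of -1.39 (SE 0.10).

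The genes that rose over the same interval belonged mainly to complexes I and V. Ndufa4 was at 42.4 and 35.4 CPM at E16.5 and 119.7 and 109 CPM at E18.5, a log2 fold change of 1.54 (SE 0.14, adjusted p = 0.000685). Ndufa11, a membrane subunit of complex I, was at 7.10 and 7.60 CPM at E16.5 and 32.1 and 34.9 CPM at E18.5, a log2 fold change of 2.05 (SE 0.21, adjusted p = 0.000957). The 2 stages were apart in both genes. Ndufa7, another accessory subunit of complex I, had a log2 fold change of 1.72 (SE 0.22). In complex V, Atp5j2 and Atp5g3 had log2 fold changes of 1.12 (SE 0.12) and 1.15 (SE 0.14), and Uqcrc1 of complex III 0.82 (SE 0.10). Atp5g1, Atp5g2 and Atp5g3 encode the same c subunit of the ATP synthase rotor, and of these Atp5g3 was at 122 and 94.4 CPM at E16.5 and 237 and 244 CPM at E18.5. Atp5g1 was at 65.9 and 148 CPM at E16.5 and 68.3 and 73.9 CPM at E18.5, and Atp5g2 at 102 and 75.7 CPM at E16.5 and 87.4 and 93.4 CPM at E18.5. The stages overlapped in Atp5g1 and Atp5g2 but not in Atp5g3.

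The mitochondrially encoded subunits did not follow the nuclear ones. Their summed level was 33589.5 and 34789 CPM at E16.5 and 38827 and 39649.5 CPM at E18.5, and 7 of 13 were higher and none lower at E18.5, with log2 fold changes of 4.39 (SE 0.23) for mt-Co3 and 1.34 (SE 0.11) for mt-Nd1. The lowest of the 13 log2 fold changes was -0.43. Summed mitochondrial ribosomal RNA went the other way, from 37108 to 48032.5 CPM in the E16.5 pools to 13546 to 13579 CPM at E18.5. Whether these differences come from the libraries was not tested. Of 78 tested cytosolic ribosomal proteins, 35 were lower and 13 higher at E18.5, with a median log2 fold change of -0.39. Of 78 mitochondrial ribosomal proteins, 26 were lower and 16 higher, with a median of -0.25. Cell-type markers moved in the same comparison. All 9 tested of 10 mesenchymal markers fell, as did 6 of 6 endothelial, 5 of 6 erythroid and 5 of 6 smooth muscle markers. The summed mesenchymal markers were at 1827 and 798 CPM at E16.5 and 68.1 and 81.8 CPM at E18.5, and the erythroid markers at 1179 and 1059 CPM at E16.5 and 26.7 and 55.0 CPM at E18.5. The summed stem cell markers were at 1550.5 and 1513 CPM at E16.5 and 5080.4 and 4696 CPM at E18.5. The part of these markers in the result was not tested. Stage cannot be told apart from pooling, since the E16.5 libraries are pools and the E18.5 libraries single embryos. Leaving out 1 library leaves 1 in its group, so the calls of such fits cannot be weighed. The median log2 fold change of the members was -0.42 and -0.45 without the first or the second E18.5 embryo. Without the first or the second E16.5 pool it was -0.62 and -0.37, against -0.45 with all libraries.

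The next comparison asked how E18.5 stem cells differ from adult ones. The summed level was lower again in the adult libraries, at 7580.2 and 6902 CPM in the duodenum and 7218 and 5974 CPM in the ileum of mice 71 and 77, against 9582 and 9336 CPM at E18.5, without overlap. Of 78 members tested, 76 had a log2 fold change below 0 and the median was -0.44, against -0.04 over all genes. The threshold was passed by 9 members that were lower and 1 that was higher, that is 11.5% and 1.28% of the members, where 9.65% and 9.36% of all genes were called lower and higher. Without the fold limit, 46 members were lower and 1 higher, where 2570 and 2036 of 19554 genes were. The 4 adult libraries come from 2 mice, and with 1 mean per mouse the counts were again 9 and 1. In that fit 2315 genes were lower and 2687 higher of 19554.

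The 9 lower genes were spread over complexes I, II, IV and V. Atp5o, the stalk subunit OSCP of ATP synthase, was at 221 and 209 CPM at E18.5, 142 and 132 CPM in adult duodenum and 133 and 111 CPM in adult ileum, a log2 fold change of -0.73 (SE 0.13, adjusted p = 0.00828). Ndufb10, an accessory subunit of complex I, was at 54.5 and 62.7 CPM at E18.5, 28.6 and 35.3 CPM in adult duodenum and 36.3 and 27.3 CPM in adult ileum, a log2 fold change of -0.87 (SE 0.17, adjusted p = 0.0126). Every adult library lay below both E18.5 libraries in these genes. Sdhd was at 96.4 and 84.2 CPM in duodenum and 98.6 and 72.2 CPM in ileum, below its E18.5 values given above, with a log2 fold change of -0.69 (SE 0.15). Ndufs3, Ndufb7 and Ndufa5 of complex I had log2 fold changes of -0.61 (SE 0.12), -0.71 (SE 0.15) and -0.67 (SE 0.17), and the others were Ndufb6, Ndufb4 and Cox5b. Ndufa1, a small X-linked subunit of complex I, was the gene that rose, and was at 9.25 and 6.60 CPM at E18.5, 18.1 and 12.4 CPM in adult duodenum and 12.5 and 15.2 CPM in adult ileum, a log2 fold change of 0.80 (SE 0.23, adjusted p = 0.0541). It had been at 31.4 and 40.4 CPM at E16.5. Both adult mice were male, and 1 E18.5 embryo was male and 1 female.

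Of the 18 fatty acid oxidation genes, 10 were lower in the adult and none higher, including Hadh at a log2 fold change of -1.35 (SE 0.17), and of the 21 glycolysis rows 8 were lower and 2 higher. Of the 78 mitochondrial ribosomal proteins, 14 were lower and 0 higher, with a median log2 fold change of -0.44 like that of the members. Of 78 tested cytosolic ribosomal proteins, 2 were lower and 0 higher, with a median of -0.24. The mitochondrially encoded subunits had a median log2 fold change of 0.01, with 0 of 13 called by limma and 2 of 13 at an unadjusted p under 0.05. All 8 Paneth cell and all 6 tuft cell markers rose. The summed Paneth markers were 153 and 146 CPM at E18.5, 17061 and 19088 CPM in adult duodenum and 11516 and 32499 CPM in adult ileum, and the summed enterocyte markers 5219.6 and 4373 CPM at E18.5, 1646 and 2023 CPM in adult duodenum and 709 and 734 CPM in adult ileum. Their part in the lower levels of the members was not tested. Leaving out either E18.5 embryo left 1 library in that group, so the calls of those fits cannot be weighed. The median log2 fold change of the members was then -0.43 and -0.46. Leaving out the duodenum of mouse 71 gave 19 lower and 0 higher. With the ileum libraries alone as the adult group, 24 were lower and 1 higher, where 2149 and 2204 of 18638 genes were. Without the duodenum of mouse 71, 1788 genes were lower and 1583 higher of 19100.

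Between gut regions, no member passed the threshold in limma, in 77 tested from the duodenum and ileum of the same 2 mice, where 6.88% of all genes did. Sdhb, the iron-sulphur subunit of complex II, had the lowest p and was the only member with an unadjusted p under 0.05, at 109.9 and 110.5 CPM in duodenum and 82.3 and 75.6 CPM in ileum, a log2 fold change of -0.48 (SE 0.15, adjusted p = 0.161). The regions did not overlap in Sdhb, but the difference missed the threshold. With mouse as the replicate block, 0 members were called and 10 had an unadjusted p under 0.05, and over the other alternatives that number ranged from 0 to 7. The other subunits of complex II had log2 fold changes of -0.36 for Sdha, -0.29 for Sdhc and -0.09 for Sdhd. Over the members, 66 of 77 were below 0 and the median was -0.16 (0.03 over all genes), with a median SE of 0.18. In the same comparison 8 of 18 fatty acid oxidation genes, 6 of 20 tested glycolysis rows and 10 of 12 enterocyte markers were lower in the ileum.

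The effect of losing Lgr5 was first compared in E16.5 pools, KO against HE. The summed level was 13355 and 14151 CPM in the KO pools and 14474 and 16788 CPM in the HE pools, so that the KO pools were the lower ones in each litter and across litters. No member was called by limma (0.527% of all genes were), but 25 of 79 had an unadjusted p under 0.05 and 61 of 79 a log2 fold change below 0. The median was -0.23, against 0.08 over all genes. Complex IV was lowest with a median of -0.34, followed by complex III at -0.26, complex II at -0.24, complex I at -0.22 and complex V at -0.20. The 78 tested cytosolic ribosomal proteins had a median of -0.25, with 23 at an unadjusted p under 0.05. The 78 mitochondrial ribosomal proteins had a median of -0.08, with 2 at an unadjusted p under 0.05.

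Ndufb10 had the lowest p of the members, at 67.5 and 70.2 CPM in the HE libraries and 41.0 and 41.7 CPM in the KO ones, which is a log2 fold change of -0.72 (SE 0.17, adjusted p = 0.131). Cox7c was at 429.5 and 455 CPM in HE and 314 and 314 CPM in KO, a log2 fold change of -0.49 (SE 0.13, adjusted p = 0.154). Genotypes did not overlap in either gene, yet both missed the threshold. The call depended on the model. Ndufb10 alone was called lower with litter as a block, where 561 genes were lower and 269 higher of 17276. On recovered reads, edgeR's quasi-likelihood test called Ndufb10, Ndufb9 and Atp5o of 75 members, all lower. It called 298 genes lower and 56 higher of 12453. With the litter block it called 9 members, all lower, and 590 genes lower and 175 higher. Marker lists moved in the same comparison. Of the tested markers, 1 of 9 mesenchymal, 3 of 6 erythroid, 1 of 6 immune and 6 of 11 enterocyte markers were called lower, and by TMM 8, 4, 2 and 6. Smooth muscle and endothelial markers were not called by limma, with 5 of 6 and 3 of 6 at an unadjusted p under 0.05, and the median log2 fold change was -2.02 for mesenchymal, -1.57 for smooth muscle, -1.56 for immune, -1.49 for erythroid, -1.31 for endothelial and -1.07 for enterocyte markers. Paneth markers had a median of 1.31, with 0 of 6 called and 5 of 6 at an unadjusted p under 0.05. Summed mesenchymal markers were 1827 and 798 CPM in HE and 182 and 489 CPM in KO pools, and summed erythroid markers 1179 and 1059 CPM in HE and 309.5 and 492 CPM in KO pools. Summed enterocyte markers were 3679.9 and 2874 CPM in HE and 1919 and 1716 CPM in KO pools. The summed mitochondrially encoded subunits were 33589.5 and 34789 CPM in HE and 27701 and 27363 CPM in KO, with 0 of 13 called by limma and 9 of 13 at an unadjusted p under 0.05. Their part in the lower levels was not tested.

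In adult ileum, 48 h after tamoxifen, the summed level was 11498 and 11727 CPM in the HE mice and 10161, 12201 and 9028 CPM in the cKO mice, and the groups overlapped. By limma 0 of 79 members were called and 0 had an unadjusted p under 0.05, where 0.0504% of all genes were called. The median log2 fold change was -0.16 (0.09 over all genes), with a median SE of 0.17. Ndufa11 had the lowest p, at 73.4 and 88.9 CPM in HE and 56.9, 78.9 and 48.8 CPM in cKO, a log2 fold change of -0.41 (SE 0.22, adjusted p = 0.864). With the genotypes of the supplementary dataset in place of the labels, Cox7a2 alone was called lower. That name was chosen after its value was seen, and 27 members had an unadjusted p under 0.05 in that fit. The swap also raised the calls over all genes, to 505 higher and 274 lower of 19848, from 6 and 4 under the labels. This comparison thus rests on an assignment that could not be settled here. Sex coincided with genotype under the labels and could not be told apart from it.

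**Figure D2:**
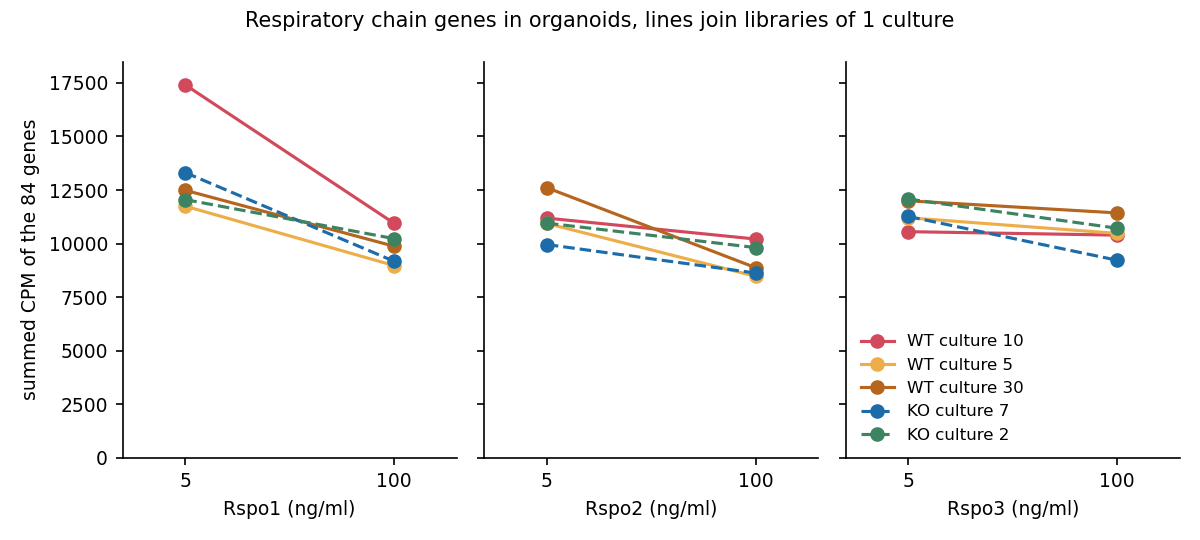
Summed CPM of the 84 genes in organoids at 5 and 100 ng/ml of each Rspondin, lines joining the libraries of 1 culture, WT and KO cultures by colour. All 15 lines slope down from 5 to 100 ng/ml, and the highest point is WT10 at 5 ng/ml Rspo1 with 17409 CPM.

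Organoids gave the widest comparison, since each culture was grown at 2 doses of 3 ligands, and the question was how the genes respond to Rspondin dose. Their summed level was lower at 100 than at 5 ng/ml in every culture and with every ligand. In WT organoids the summed level with Rspo1 was 10949, 8976 and 9878 CPM at 100 ng/ml and 17409, 11747 and 12489 CPM at 5 ng/ml. With Rspo2 it was 10214, 8473 and 8877 CPM at 100 ng/ml and 11189.6, 10941 and 12610.2 CPM at 5 ng/ml. With Rspo3 it was 10396, 10477 and 11432 CPM at 100 ng/ml and 10557, 11206 and 11998 CPM at 5 ng/ml. Every library at 5 ng/ml lay above every library at 100 ng/ml with Rspo1 and Rspo2, and the doses overlapped with Rspo3. In KO organoids the summed level with Rspo1 was 9176 and 10232 CPM at 100 ng/ml and 13314 and 12054 CPM at 5 ng/ml. With Rspo2 it was 8627 and 9815 CPM at 100 ng/ml and 9957 and 10956 CPM at 5 ng/ml. With Rspo3 it was 9223 and 10718 CPM at 100 ng/ml and 11267 and 12079.5 CPM at 5 ng/ml. The doses were apart with each of the 3 ligands in KO organoids. Within a culture, the level at 5 ng/ml was above that at 100 ng/ml in 15 of 15 pairs, by a ratio of 1.02 to 1.59 (median 1.18). The median ratio was 1.30 for complex II, 1.23 for complex III, 1.18 for complex IV, 1.17 for complex I and 1.16 for complex V. Of 75 members with a mean of at least 10 CPM, 26 were below their 5 ng/ml value in all 15 pairs at 100 ng/ml, among them Sdhb, Sdhc, Uqcrfs1 and Ndufv3, and none were above it in 12 or more. The same count was not made over all genes, so it describes the members and sets them apart from nothing.

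With Rspo1 in WT organoids, 46 of 79 members were lower at 100 than at 5 ng/ml and 1, Ndufa4l2, was called higher (adjusted p of at most 0.05, no fold limit), whereas 12.5% of all genes were lower and 40.9% higher. The median log2 fold change was -0.50 for members and 0.28 for all tested genes. By complex, 20 of 37 genes of complex I, 3 of 4 of complex II, 5 of 8 of complex III, 9 of 13 of complex IV and 9 of 17 of complex V were lower. Uqcrfs1 (ENSMUSG00000038462, chr13:30540308-30545362, minus strand), the Rieske iron-sulphur protein of complex III, was at 152, 129.9 and 145 CPM at 100 ng/ml and 268, 202 and 208 CPM at 5 ng/ml, a log2 fold change of -0.65 (SE 0.11, adjusted p = 5.75e-05). Sdhb (ENSMUSG00000009863, chr4:140961203-140979193, plus strand) was at 157, 117 and 126 CPM at 100 ng/ml and 298, 197 and 208 CPM at 5 ng/ml, a log2 fold change of -0.80 (SE 0.16, adjusted p = 0.000226). The doses did not overlap in these genes. Ndufv3, an accessory subunit of complex I, Sdhc, the other membrane anchor of complex II, and Uqcrc1 had log2 fold changes of -0.74 (SE 0.13), -0.55 (SE 0.11) and -0.46 (SE 0.09). When libraries were scaled by TMM (trimmed mean of M values), the median of all genes moved by -0.28 on the log2 scale, 73 members were lower and 1 higher, and the share of higher genes among all calls went from 76.6% to 48.1%. Of all genes, 23.9% were lower and 22.2% higher by TMM. WT10 at 5 ng/ml Rspo1 stood apart, with Cox4i1, for one, at 805, 344 and 376 CPM in the 3 cultures. Without both Rspo1 libraries of WT10, 38 members were lower and 1 higher. Among the members, the 57 with a coding length under 600 bases had a median log2 fold change of -0.54 and the 22 longer ones -0.44, against 0.13 and 0.30 over all short and longer coding genes, and the part of length in the result was not tested.

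With Rspo2 in WT organoids, 27 members were lower at 100 ng/ml and none higher (9.12% and 24.3% of all genes). All 4 genes of complex II were lower, with log2 fold changes of -0.53 (SE 0.13) for Sdha, -0.62 for Sdhb, -0.40 for Sdhc and -0.42 for Sdhd, together with 4 of 8 of complex III, 7 of 17 of complex V, 10 of 37 of complex I and 2 of 13 of complex IV. Sdha was at 292, 320.0 and 350.2 CPM at 100 ng/ml and 451, 415 and 529.8 CPM at 5 ng/ml. Uqcrc2 had the lowest adjusted p, at 189, 193 and 217 CPM at 100 ng/ml and 290.0, 282 and 317 CPM at 5 ng/ml, a log2 fold change of -0.57 (SE 0.10, adjusted p = 0.00034). The doses did not overlap in either gene. Uqcrfs1 and Uqcrc1 had log2 fold changes of -0.48 (SE 0.11) and -0.40 (SE 0.09). Atp5f1, the b subunit of the ATP synthase stalk, had a log2 fold change of -0.50 (SE 0.11) and Cox5a, a core-associated subunit of complex IV, -0.55 (SE 0.13). TMM scaling gave 45 lower and 0 higher and moved the share of higher genes among all calls from 72.7% to 41.4%. Of all genes, 17.8% were lower and 12.6% higher by TMM. Leaving out culture WT30 left 4 members lower and leaving out WT5 left 13.

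With Rspo3 in WT organoids few members were called, 2 lower and 4 higher, where 13.7% and 37.8% of all genes were. Cox7a1 and Uqcrfs1 were lower. Uqcrfs1 was at 157, 170.4 and 169.6 CPM at 100 and 179.7, 210.2 and 211 CPM at 5 ng/ml, a log2 fold change of -0.27 (SE 0.11, adjusted p = 0.0485). Atp5g2, Atp5s and Ndufs4 were higher, with log2 fold changes of 0.33 (SE 0.12), 0.33 (SE 0.13) and 0.44 (SE 0.17). The other higher call was Ndufa4l2, which stayed below the filter of 1 CPM in all 6 libraries of this comparison and was tested through libraries at 100 ng/ml Rspo1 in WT and Rspo3 in KO. The direction of the calls depended on scaling. By TMM 28 members were lower and the 1 higher call was Ndufa4l2, the all-gene median moved by -0.19, and the share of higher genes among all calls went from 73.4% to 53.8%. Of all genes, 22.4% were lower and 26.1% higher by TMM. With culture as a block the counts were 5 lower and 6 higher, without culture WT5 none were called, and without WT30 1 was lower and 1 higher. The block fit called 3258 genes lower and 8561 higher of 19130. The median log2 fold change was -0.10 for members and 0.24 for all genes.

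KO organoids were compared in the same way to ask whether the response needs Lgr5. With Rspo1, 15 members were lower at 100 ng/ml and 1, Cox6b2, was called higher, where 7.86% and 21.9% of all genes were, and the median was -0.40 (0.19 over all genes). Uqcrfs1 was at 138 and 157 CPM at 100 and 227 and 194 CPM at 5 ng/ml, a log2 fold change of -0.51 (SE 0.14, adjusted p = 0.00793). Sdhb was at 123 and 124 CPM at 100 ng/ml and 213 and 186 CPM at 5 ng/ml, a log2 fold change of -0.68 (SE 0.19, adjusted p = 0.0106). The doses did not overlap in these genes. Uqcrc2, Sdhc, Ndufv3 and Atp5f1 were lower too, with log2 fold changes of -0.47 (SE 0.13), -0.49 (SE 0.13), -0.58 (SE 0.16) and -0.43 (SE 0.13). By TMM 52 were lower and 0 higher, with the share of higher genes among all calls at 46.7% in place of 73.6%. Of all genes, 14.4% were lower and 12.6% higher by TMM. With culture as a block 32 were lower and 2 higher, where 2331 and 6056 of 19130 genes were. Leaving out KO7 left 0 called, and leaving out WT10, which enters only through the shared spread, gave 43 lower and 1 higher.

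With Rspo2 in KO organoids no member was called by limma and 2 of 79 had an unadjusted p under 0.05, where 0.115% of all genes were called. Sdhc had the lowest p, at 113 and 132 CPM at 100 and 150.1 and 164 CPM at 5 ng/ml, a log2 fold change of -0.36 (SE 0.13, adjusted p = 0.532). Although none passed, 77 of 79 were below 0, with a median of -0.18 (0.04 over all genes). With culture as a block 0 members were called and 10 had an unadjusted p under 0.05, where 40 genes were lower and 184 higher of 19130. By TMM 0 members were called and 9 had an unadjusted p under 0.05. The summed stem cell markers of these cultures were at 3886 and 3425 CPM at 100 ng/ml and 1888 and 3863 CPM at 5 ng/ml, and 1 of 10 was called. With Rspo3 in KO organoids 7 members were lower and 2, Ndufa4l2 and Cox6b2, were called higher (11.8% and 32.7% of all genes). Cox7a1, Ndufv3, Uqcrfs1, Ndufa12 and 3 of the 4 complex II genes, Sdhb, Sdhc and Sdhd, were lower. Sdhc was at 126 and 153 CPM at 100 and 175 and 193 CPM at 5 ng/ml, a log2 fold change of -0.40 (SE 0.13, adjusted p = 0.0181). By TMM 42 were lower and 2 higher, the all-gene median moved by -0.22, and the share of higher genes among all calls went from 73.6% to 52.6%. Of all genes, 20.0% were lower and 22.2% higher by TMM, and 2929 and 7605 of 19130 with culture as a block. With culture as a block 17 were lower and 2 higher, without KO7 1 lower and 2 higher, without KO2 1 lower and 0 higher, and without WT10 21 lower and 2 higher.

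**Figure D3:**
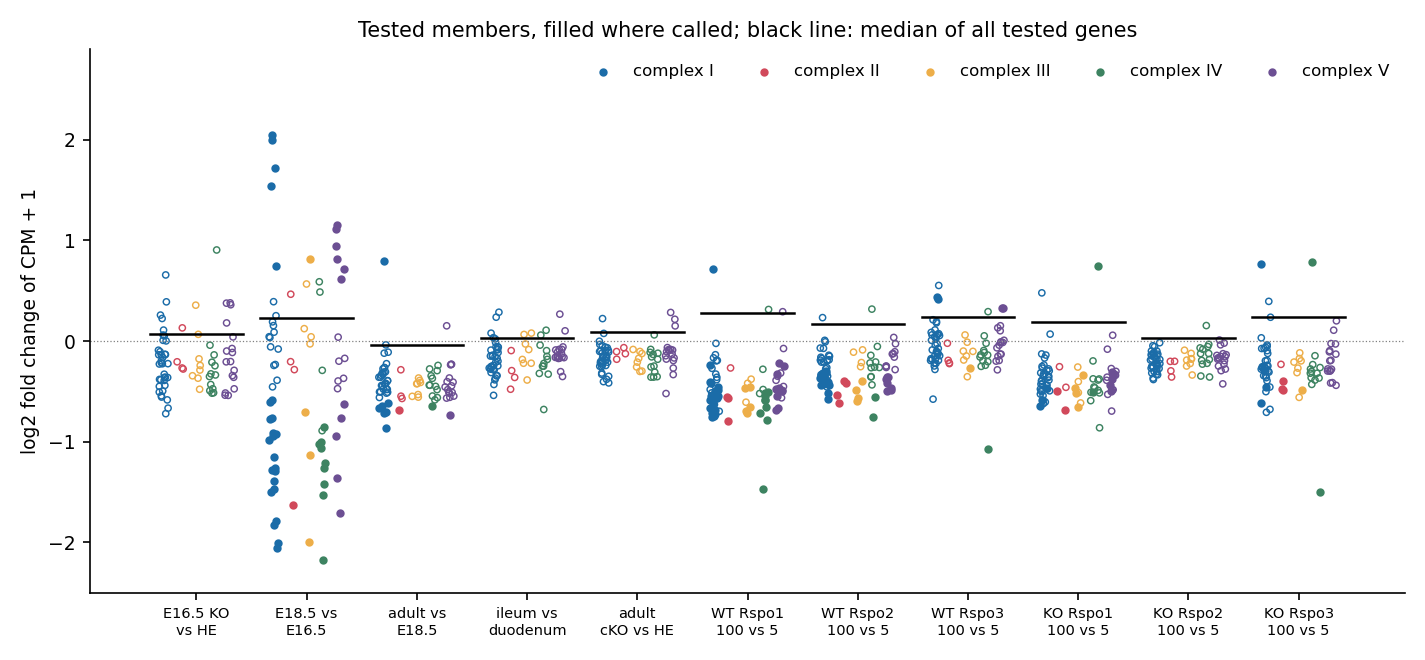
Log2 fold change of each tested member in 5 comparisons of sorted cells and 6 dose comparisons of organoids, coloured by complex and filled where called, with a black line at the median of all tested genes. The median of the members lies below that line in each of the 11 comparisons, for example at -0.50 against 0.28 with Rspo1 in WT organoids.

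Over the 6 dose comparisons, which share cultures, 48 members were called lower at 100 ng/ml at least once, 16 at least 3 times and 6 at least 4 times, 5 were called higher at least once (Ndufa4l2 and Cox6b2 among them) and 26 were never called. Uqcrfs1 was lower in 5 of 6. Cox7a1, Ndufa12, Ndufv3, Sdhb and Sdhc were each lower in 4. These counts describe recurrence and were not tested. Recurrence was not counted over all genes, so they do not set the members apart.

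Cox7a1 (ENSMUSG00000074218, chr7:30184144-30186078, plus strand) had the most negative log2 fold change of the called members in the 3 WT dose comparisons and with Rspo3 in KO. With Rspo1 in WT it was at 4.30, 2.05 and 2.40 CPM at 100 and 15.5, 8.15 and 6.70 CPM at 5 ng/ml, a log2 fold change of -1.47 (SE 0.27, adjusted p = 0.000115). With Rspo3 in WT it was at 3.15, 2.85 and 4.95 CPM at 100 ng/ml and 6.65, 9.80 and 9.75 CPM at 5 ng/ml, a log2 fold change of -1.07 (SE 0.27, adjusted p = 0.00203). In KO organoids with Rspo3 it was at 3.55 and 2.75 CPM at 100 ng/ml and 9.75 and 11.7 CPM at 5 ng/ml, a log2 fold change of -1.50 (SE 0.33, adjusted p = 0.000822). The doses were apart in each of these comparisons, and at these levels the pseudocount of 1 CPM makes the fold change an understatement. The predominant paralog Cox7a2 was at 84.1, 87.4 and 99.3 CPM at 100 and 92.0, 105 and 114 CPM at 5 ng/ml Rspo3 in WT, with a log2 fold change of -0.20 (SE 0.28, adjusted p = 0.578), and the doses overlapped.

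Ndufa4l2 and Cox6b2, a testis-type paralog of Cox6b1, are given as values only, because the filter let them in through the doses where they were high. Ndufa4l2 reached 1 CPM in 3 of 30 organoid libraries, all at 100 ng/ml, and Cox6b2 in 8, of which 7 were at 100 ng/ml, so that their counts as higher members support nothing. Ndufa4l2 was at 1.75, 0.65 and 1.00 CPM at 100 ng/ml and 0.25, 0.35 and 0.20 CPM at 5 ng/ml with Rspo1 in WT. With Rspo3 in KO organoids it was at 0.80 and 1.30 CPM at 100 ng/ml and 0.15 and 0.25 CPM at 5 ng/ml, and with Rspo3 in WT at 0.65, 0.60 and 0.55 CPM at 100 ng/ml and 0.20, 0.20 and 0.20 CPM at 5 ng/ml. In these 3 comparisons its doses were apart. Its paralog Ndufa4 was at 138, 72.2 and 83.2 CPM at 100 and 277, 109 and 122 CPM at 5 ng/ml Rspo1 in WT, with a log2 fold change of -0.71 (SE 0.27, adjusted p = 0.0303). The doses overlapped in Ndufa4. Cox6b2 was at 2.00 and 1.25 CPM at 100 ng/ml and 0.60 and 0.50 CPM at 5 ng/ml with Rspo1 in KO organoids, and at 1.35 and 1.65 CPM at 100 ng/ml and 0.60 and 0.30 CPM at 5 ng/ml with Rspo3.

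**Figure D4:**
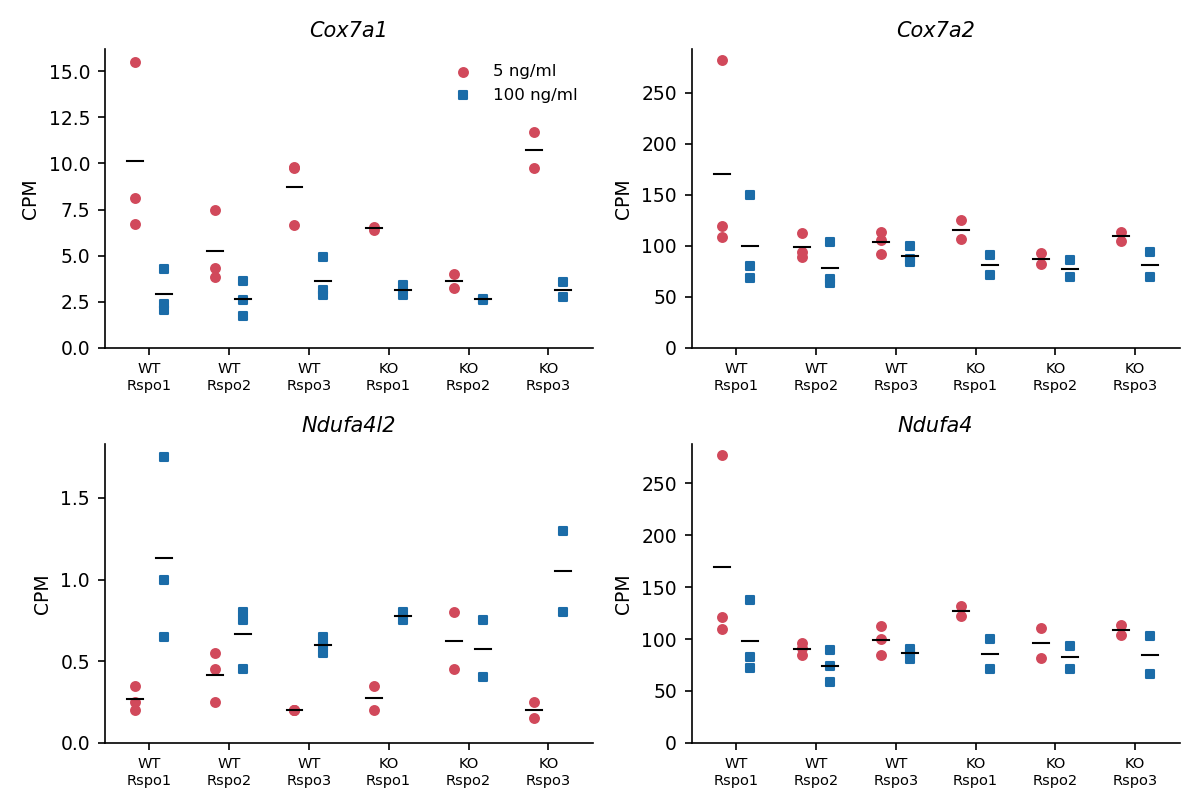
CPM of Cox7a1, Cox7a2, Ndufa4l2 and Ndufa4 in every organoid library by genotype, ligand and dose, each point a library and each black bar the mean of a condition. Cox7a1 is highest at 5 ng/ml Rspo1 in culture WT10 (15.5 CPM), and Ndufa4l2 stays at or below 1.75 CPM.

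Differences between ligands at the same dose were then compared in WT organoids. At 100 ng/ml, no member differed between Rspo2 and Rspo1 by limma (0.204% of all genes did; 1 of 79 members had an unadjusted p under 0.05), nor between Rspo3 and Rspo1 (0.00523% of all genes; 9 of 79). At 5 ng/ml, 9 members were lower with Rspo2 than with Rspo1 and none higher (6.35% and 16.4% of all genes), led by Ndufc1 at 31.1, 31.8 and 37.2 CPM with Rspo2 and 63.8, 42.2 and 47.4 CPM with Rspo1, a log2 fold change of -0.58 (SE 0.17, adjusted p = 0.0151). Cox7b and Ndufa1, both X-linked, followed with log2 fold changes of -0.60 (SE 0.18) and -0.77 (SE 0.25), and then Cox7a1, Atp5g3 and Ndufa4. The 57 short members had a median of -0.40 and the 22 longer ones -0.11, against 0.15 and -0.01 over all short and longer coding genes. With Rspo3 4 members were lower than with Rspo1 and none higher (12.7% and 3.69% of all genes), namely Atp5g1, Atp5g2, Ndufv2 and Ndufc2, the last at 25.5, 24.2 and 37.3 CPM with Rspo3 and 87.4, 38.0 and 43.2 CPM with Rspo1, a log2 fold change of -0.86 (SE 0.26, adjusted p = 0.0286). In Ndufc1 and Ndufc2 alike, WT10 with Rspo1 was the highest library. Without the Rspo1 libraries of WT10, 0 members were called at 5 ng/ml in either comparison and 3 had an unadjusted p under 0.05 in each. Leaving out all libraries of WT10, WT5, WT30, KO7 or KO2 left 0, 2, 3, 4 and 4 members with Rspo2 and 0, 2, 2, 3 and 3 with Rspo3. TMM scaling gave 26 lower with Rspo2 and 1 with Rspo3, with the share of higher genes among all calls moving from 72.1% to 52.5% and from 22.5% to 37.7%. With culture as a block, 29 members were lower and 2 higher with Rspo2 and 28 were lower with Rspo3, and at 100 ng/ml Atp5a1, Atp5d, Sdha and Uqcrc2 were higher with Rspo3 than with Rspo1, names chosen after their values were seen, and the 1 call lower was Ndufa4l2. The shares of all genes given above come from fits without the block and are no background for these counts.

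Whether the dose effect itself differed was tested as an interaction. Between KO and WT no member was called by limma for Rspo1, Rspo2 or Rspo3, and 0 of 79 had an unadjusted p under 0.05 in each, where 0.0%, 0.439% and 0.0% of all genes were called. The median difference in dose effect was 0.09, 0.11 and -0.18 on the log2 scale, with a median SE of 0.27. For Uqcrfs1 the dose effects differed by 0.14 (SE 0.18) with Rspo1, 0.26 (SE 0.18) with Rspo2 and -0.22 (SE 0.18) with Rspo3. These tests do not show that the genotypes respond alike. The largest difference by p was that of Uqcrc2 with Rspo2, at 0.32 (SE 0.16, adjusted p = 0.416). Between ligands in WT, added after the values had been seen, 0 members differed in dose effect for Rspo2 against Rspo1 (4.7% of all genes; 2 at an unadjusted p under 0.05) and 0 for Rspo3 against Rspo1 (0.46%; 21 at an unadjusted p under 0.05). For Rspo3 77 of 79 differences were above 0, with a median of 0.39, and Sdhb differed by 0.58 (SE 0.22, adjusted p = 0.303). With culture as a block, Atp5s differed for Rspo2, and Cox5a, Ndufa9 and Uqcrc2 for Rspo3, where their dose effects were less negative than with Rspo1. These names were chosen after their values were seen. The lower number of calls with Rspo3 was therefore not shown to be a weaker effect than with Rspo1 without the block.

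Averaged over the 6 conditions, KO and WT cultures did not differ in any member by limma (0.152% of all genes were called), and 4 members had an unadjusted p under 0.05. These were Ndufa6 at a log2 fold change of -0.50 (SE 0.15), Cox7a2l at -0.24 (SE 0.08), the X-linked Ndufb11 at -0.27 (SE 0.11), and Cox6b2, of whose 8 libraries at 1 CPM or more 6 were KO. The median was -0.08, with a median SE of 0.12, and genotype cannot be told apart from sex here.

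Neighbouring pathways were counted in the same fits. Of 18 fatty acid oxidation genes, 16 were lower at 100 ng/ml Rspo1, 14 with Rspo2 and 5 with Rspo3 in WT, where 2 were higher, and 13 with Rspo1 and 10 with Rspo3 in KO. Hadh, an enzyme of beta-oxidation, had a log2 fold change of -1.15 (SE 0.13) with Rspo1 in WT. Of 18 genes of the tricarboxylic acid cycle and pyruvate dehydrogenase, 7 were lower and 2 higher with Rspo1, 12 and 1 with Rspo2, and 5 and 8 with Rspo3 in WT, where TMM gave 12 and 0, 14 and 0, and 7 and 2, so that the majority turned with Rspo3. Mdh2, mitochondrial malate dehydrogenase, had a log2 fold change of -0.97 (SE 0.15) with Rspo1. Of 21 glycolysis rows, 9, 13 and 6 were lower with Rspo1, Rspo2 and Rspo3 in WT, although Hk2, a hexokinase, rose by 1.90 (SE 0.15) with Rspo1. By TMM 17, 16 and 12 fatty acid oxidation genes and 15, 16 and 11 glycolysis rows were lower. Other mitochondrial lists were counted the same way, and 40.9%, 24.3% and 37.8% of all genes were higher in these 3 comparisons. Of 16 regulators of mitochondrial biogenesis, 9 were higher and 2 lower with Rspo1, 5 and 3 with Rspo2, and 10 and 1 with Rspo3 in WT, among them Pprc1, a coactivator of NRF1, with a log2 fold change of 1.58 (SE 0.19) with Rspo1. Of 47 assembly factors, 11 were higher and 6 lower with Rspo1, 0 and 6 with Rspo2, and 19 and 0 with Rspo3. Of 78 mitochondrial ribosomal proteins, 9 were higher and 4 lower with Rspo1, 0 and 6 with Rspo2, and 45 and 0 with Rspo3. These counts depended on the scaling. By TMM, 5 biogenesis regulators were higher and 3 lower with Rspo1, 1 and 5 with Rspo2, and 8 and 2 with Rspo3. Assembly factors gave 0 higher and 16 lower, 0 and 17, and 12 and 7, and mitochondrial ribosomal proteins 1 higher and 27 lower, 0 and 29, and 21 and 1. The majority thus turned with Rspo1 for the last 2 lists and with Rspo2 for the regulators. Of 6 subunits and partners that the symbol rule leaves out, 4 were lower with Rspo1, including Atpif1, the inhibitor of ATP synthase, at -0.83 (SE 0.18), and Cycs, cytochrome c, at -0.51. The 11 tested mitochondrially encoded subunits were not called in any of the 6 dose comparisons by limma, and 0 of 11 had an unadjusted p under 0.05 in each.

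Cell-type markers moved with dose. All 10 stem cell markers were higher at 100 ng/ml in every dose comparison except Rspo2 in KO, where 1 of 10 was. By TMM 9 of 10 were higher with Rspo1 in KO and 0 of 10 with Rspo2 in KO. In WT, 9, 8 and 9 of 12 enterocyte markers were lower with Rspo1, Rspo2 and Rspo3 (10, 8 and 9 by TMM), 7, 8 and 5 of 8 Paneth markers were higher (the same counts by TMM), and 1, 4 and 1 of 7 goblet markers were lower (4, 5 and 2 by TMM), with 1 higher with Rspo3. Summed enterocyte markers in WT were 5027, 5247 and 5018 CPM at 100 and 11866, 12673 and 12435 CPM at 5 ng/ml Rspo1. With Rspo3 they were 10274, 7487 and 11431 CPM at 100 ng/ml and 18690.2, 17969 and 18791 CPM at 5 ng/ml. Summed stem cell markers were 3006, 3768 and 3068 CPM at 100 ng/ml and 529.7, 582 and 519 CPM at 5 ng/ml with Rspo1. The doses were apart in each of these sums. The part of these shifts in the dose effect on respiratory chain genes was not tested.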

How the data were processed

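RNA of sorted intestinal stem cells and of organoids was sequenced, and the authors deposited CPM (read counts scaled to a common library total) for each gene and library, made with Trimmomatic 0.36, STAR 2.5.3a and HTSeq 0.9.1 on GRCm38.p4 (mm10) per the submitters' processing notes. The deposited CPM are rounded up to steps of 0.05, and the estimated totals, read from those steps, were 1276596 to 9988897 reads in sorted cells and 18127853 to 33105592 reads in organoids. Groups were taken from the labels.

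Genes that reached 1 CPM in at least the number of libraries of the smaller group (organoids, 2) were tested with limma 3.58.1 (R 4.3.3, trended empirical Bayes) on log2(CPM + 1) with no further scaling, and p-values were adjusted by Benjamini-Hochberg over all genes tested. This scale understates changes of low genes. Sorted-cell comparisons were fitted on their own groups, with limits of 0.1 for the adjusted p and 1.5 for the fold change, and all 30 organoid libraries in 1 fit of 12 groups with a limit of 0.05. Low values of the 4 E16.5 pools lay on whole-read steps in 100.0% of cases, and edgeR 4.0.16 on the recovered reads called 56 genes higher and 298 lower of 12453. Scripts were tested on simulated data.

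The members and all gene lists were chosen with earlier results of these data known. The text names, in each comparison, called members with the lowest adjusted p, up to 6 in each direction, the member with the most reads in each complex, paralogs, the 4 Sdh genes, untested members and up to 2 genes of each other list. Whether same-numbered libraries deviate together was checked by the correlation of their deviations from group means. It was -0.0324 for the litters at E16.5, 0.2572 for ileum and duodenum of a mouse, and 0.1552 to 0.8268 over 75 pairs of organoid libraries of 1 culture, where the labels name the litter, mouse or culture. Numbers shared by the E18.5 and E16.5 libraries gave -0.0186, those of adult and E18.5 libraries 0.019 to 0.2475 and those of the conditional knockout set 0.1609 and 0.4189, and are only names. Apart from cultures, mice and pools, nothing says how libraries are independent, so p-values measure the spread between these samples. Start-site windows came from a RefSeq table, and members without an entry include Ndufa2, Ndufa4l2, Ndufb9, Ndufs1, Sdhc, Uqcrb, Uqcrc2, Uqcrq, Cox4i1, Cox4i2, Cox6a2, Cox6c, Cox8c, Atp5a1, Atp5f1, Atp5s and Atp5sl. Results for 1 gene that the naming rule selects are not reported here.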

Additional observations from a re-analysis of the deposited data

How the results depend on the processing

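Over the 711 alternative fits of the 63 named called values, 560 kept their direction and their side of the threshold, 151 kept the direction but passed the threshold no longer, and 0 reversed.

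The following are counts of members called, in either direction, where an alternative moved them by over 1.5 times. With TMM scaling they were 1 for E16.5 KO against HE, 74, 45 and 29 for the dose of Rspo1, Rspo2 and Rspo3 in WT organoids, 52 and 44 for Rspo1 and Rspo3 in KO organoids, and 26 and 1 for Rspo2 and Rspo3 against Rspo1 at 5 ng/ml. With a mean of at least 10 CPM, or in 1 fit of all 15 sorted libraries, the E16.5 counts were 1 and 2. With every gene above 0 in a library kept, they were 9 for Rspo1 in KO organoids, and 3 and 1 for Rspo2 and Rspo3 against Rspo1 at 5 ng/ml. The adult comparison gave 47 with no fold limit and 25 with the ileum alone, and the conditional knockout 1 with the supplementary genotypes. By edgeR the E16.5 count was 3.

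With litter as the replicate block, the E16.5 count was 1 by limma and 9 by edgeR, the latter added after the data were seen. With culture as the replicate block, counts were 11 for Rspo3 in WT, 34 and 19 for Rspo1 and Rspo3 in KO, 31 and 28 for Rspo2 and Rspo3 against Rspo1 at 5 ng/ml, 5 for Rspo3 against Rspo1 at 100 ng/ml, and 1 and 3 for the differences in dose effect of Rspo2 and Rspo3 from Rspo1. The block moved no other count of members by over 1.5 times.

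Leaving out the Rspo1 libraries of WT10, an alternative added after the data were seen, gave 10 for Rspo3 in WT, 42 and 17 for Rspo1 and Rspo3 in KO, and 0 and 0 for Rspo2 and Rspo3 against Rspo1 at 5 ng/ml. Leaving out 1 library or culture at a time gave 0 to 49 for E18.5 against E16.5, 0 to 19 for adult against E18.5, 33 to 43, 4 to 34 and 0 to 4 for Rspo1, Rspo2 and Rspo3 in WT, 0 to 44 and 1 to 23 for Rspo1 and Rspo3 in KO, and 0 to 4 and 0 to 3 for Rspo2 and Rspo3 against Rspo1 at 5 ng/ml, and 0 in every other comparison. Where a group is left with 1 library, that library is assumed to vary like the others, so a count of 0 there does not show that the effect is absent. The cause of these differences was not tested.

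Groups of 2 or 3 libraries limit every call here, and CPM are shares of a library, so that members can only be compared with the rest of the transcriptome. The choice of scaling moved the median of all genes by -0.28 on the log2 scale with Rspo1 in WT organoids. The sorted E16.5 pools are the shallowest libraries, and genes of a few CPM there rest on few reads.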
